A study of Mus musculus with 102 samples.

Results

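The proteasome is the protease complex that degrades ubiquitin-tagged proteins in every cell. Its 20S core is a stack of α rings and β rings, with the proteolytic sites on the β subunits Psmb5, Psmb6 and Psmb7, and its 19S cap holds a ring of ATPases (Psmc genes) and a set of non-ATPase subunits (Psmd genes). Interferon γ induces the alternative catalytic subunits Psmb8, Psmb9 and Psmb10, which replace Psmb5, Psmb6 and Psmb7 in newly built cores to give the immunoproteasome, and also the PA28 activator subunits Psme1 and Psme2. The immunoproteasome is best known for making peptides for presentation on MHC class I molecules, and in the brain for its presence in microglia and other immune cells. The members described here are the genes whose symbol is Psma, Psmb, Psmc, Psmd, Psme, Psmf or Psmg followed by a number, as read from probe sets with a single gene symbol. There were 49 such genes among 18193, read by 103 of 34945 single-symbol probe sets, and each gene was followed through the probe set with its highest mean over 48 regions.

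Total RNA was measured on Affymetrix expression arrays in 51 regions of the mouse central nervous system, and 48 of them (96 arrays) were compared here, with Retina, Pituitary and Pineal set apart. All regions came from 1 kind of animal, untreated male Balb/c mice 7 to 8 weeks old, kept in a light-dark cycle or in constant darkness, with tissue punched or dissected at 6 times of day 4 h apart and combined. Each region had 2 arrays, each from the pooled tissue of 30 to 150 mice, so that a p-value here measures the spread between 2 pools. The SE and p of a division likewise measure the spread between pools of a region, not the spread between its regions. The median log2 level of an array lay between 7.32 and 7.46. In such tissue, fewer cells of a type and less RNA per cell cannot be told apart.

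Of the 49 members, 31 encode constitutive subunits of the complex, namely 7 α and 7 β subunits of the core, 6 ATPases and 11 non-ATPase subunits of the cap. The immunoproteasome was represented by 4 genes, Psmb8, Psmb9, Psmb10 and Psme1, and Psme2 was not measured here because none of its probe sets carried a single symbol. The other 14 were chaperones of assembly (Psmd5, Psmd9, Psmd10 and Psmg1 to Psmg4), regulators (Psme3, Psme4 and Psmf1), the germ line and thymus subunits Psma8 and Psmb11, and Psmc3ip and Psme3ip1, which fit the symbol rule but encode no subunit. Levels are the deposited log2 values, a difference is on the log2 scale, and levels of different probe sets are not compared with each other.

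The promoters of Psmb9 and Psme1 are shown because their levels stood out in hypothalamic regions. They span 250 bases before to 50 bases after the RefSeq start (build GRCm38.p6), 5′ to 3′ on the gene's strand, and capitals mark the motif matches found.
Psmb9 (chr17:34187281-34187580, minus strand): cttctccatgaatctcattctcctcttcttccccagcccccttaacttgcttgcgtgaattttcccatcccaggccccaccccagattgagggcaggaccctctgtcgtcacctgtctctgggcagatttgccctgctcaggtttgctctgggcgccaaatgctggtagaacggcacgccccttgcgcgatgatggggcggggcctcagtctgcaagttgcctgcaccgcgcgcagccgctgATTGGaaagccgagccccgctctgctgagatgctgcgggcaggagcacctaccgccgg
Psme1 (chr14:55578244-55578543, plus strand): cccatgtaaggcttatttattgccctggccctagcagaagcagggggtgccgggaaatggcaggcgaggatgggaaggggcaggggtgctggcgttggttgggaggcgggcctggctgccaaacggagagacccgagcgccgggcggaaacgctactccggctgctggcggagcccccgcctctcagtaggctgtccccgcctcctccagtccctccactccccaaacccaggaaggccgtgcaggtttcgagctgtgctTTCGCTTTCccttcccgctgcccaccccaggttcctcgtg
The capitals are a match to CCAAT, the NF-Y box, on the opposite strand 8 bases before the Psmb9 start, and a match to GAAANNGAA, a core of the interferon-stimulated response element, on the opposite strand 10 bases after the Psme1 start. Both strands were searched, and among all 32851 RefSeq promoters of this length 37.4% held CCAAT and 8.56% held GAAANNGAA. Counted by gene, with a match in any of its promoters, the shares were 41.1% and 9.76% of 27025 genes. Promoters were found for 41 of the 49 members, and of these, counted by gene, 16 held CCAAT and 7 held GAAANNGAA. The motif TGACNNNGC, the antioxidant response core that Nfe2l1 and Nfe2l2 bind, was found for 14.0% of all genes. Among the 41 members it was found for 6 (Psmb5, Psmb6, Psmc6, Psmd9, Psmd12 and Psme4). On chromosome 17, Psmb9, Tap1, Psmb8 and Tap2 lie next to each other in this order within the MHC class II region, with the peptide transporter genes between and beside the subunit genes.

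All 49 members differed among the 48 regions in the limma F test at an adjusted p below 0.05, a threshold that 91.1% of all 45037 probe sets passed, so that this count says little about the members. They differed much more in how far they ranged. Psme1, the α subunit of the PA28 cap, had an SD over region means of 0.72, against a replicate SD of 0.13. Psmb8 (0.45) and Psmb9 (0.41) came next, ahead of Psmc1 (0.36), Psmd10 (0.36), Psmd12 (0.33) and Psmb10 (0.32). The smallest SDs were those of Psmd3 (0.11), Psme3ip1 (0.11), Psmb11 (0.11) and Psmd14 (0.13), and the median probe set had 0.19. From its lowest to its highest region Psme1 spanned 3.10 on the log2 scale, or 8.56-fold, while Psmd3, a subunit of the 19S lid, spanned 0.44.

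**Figure D1:**
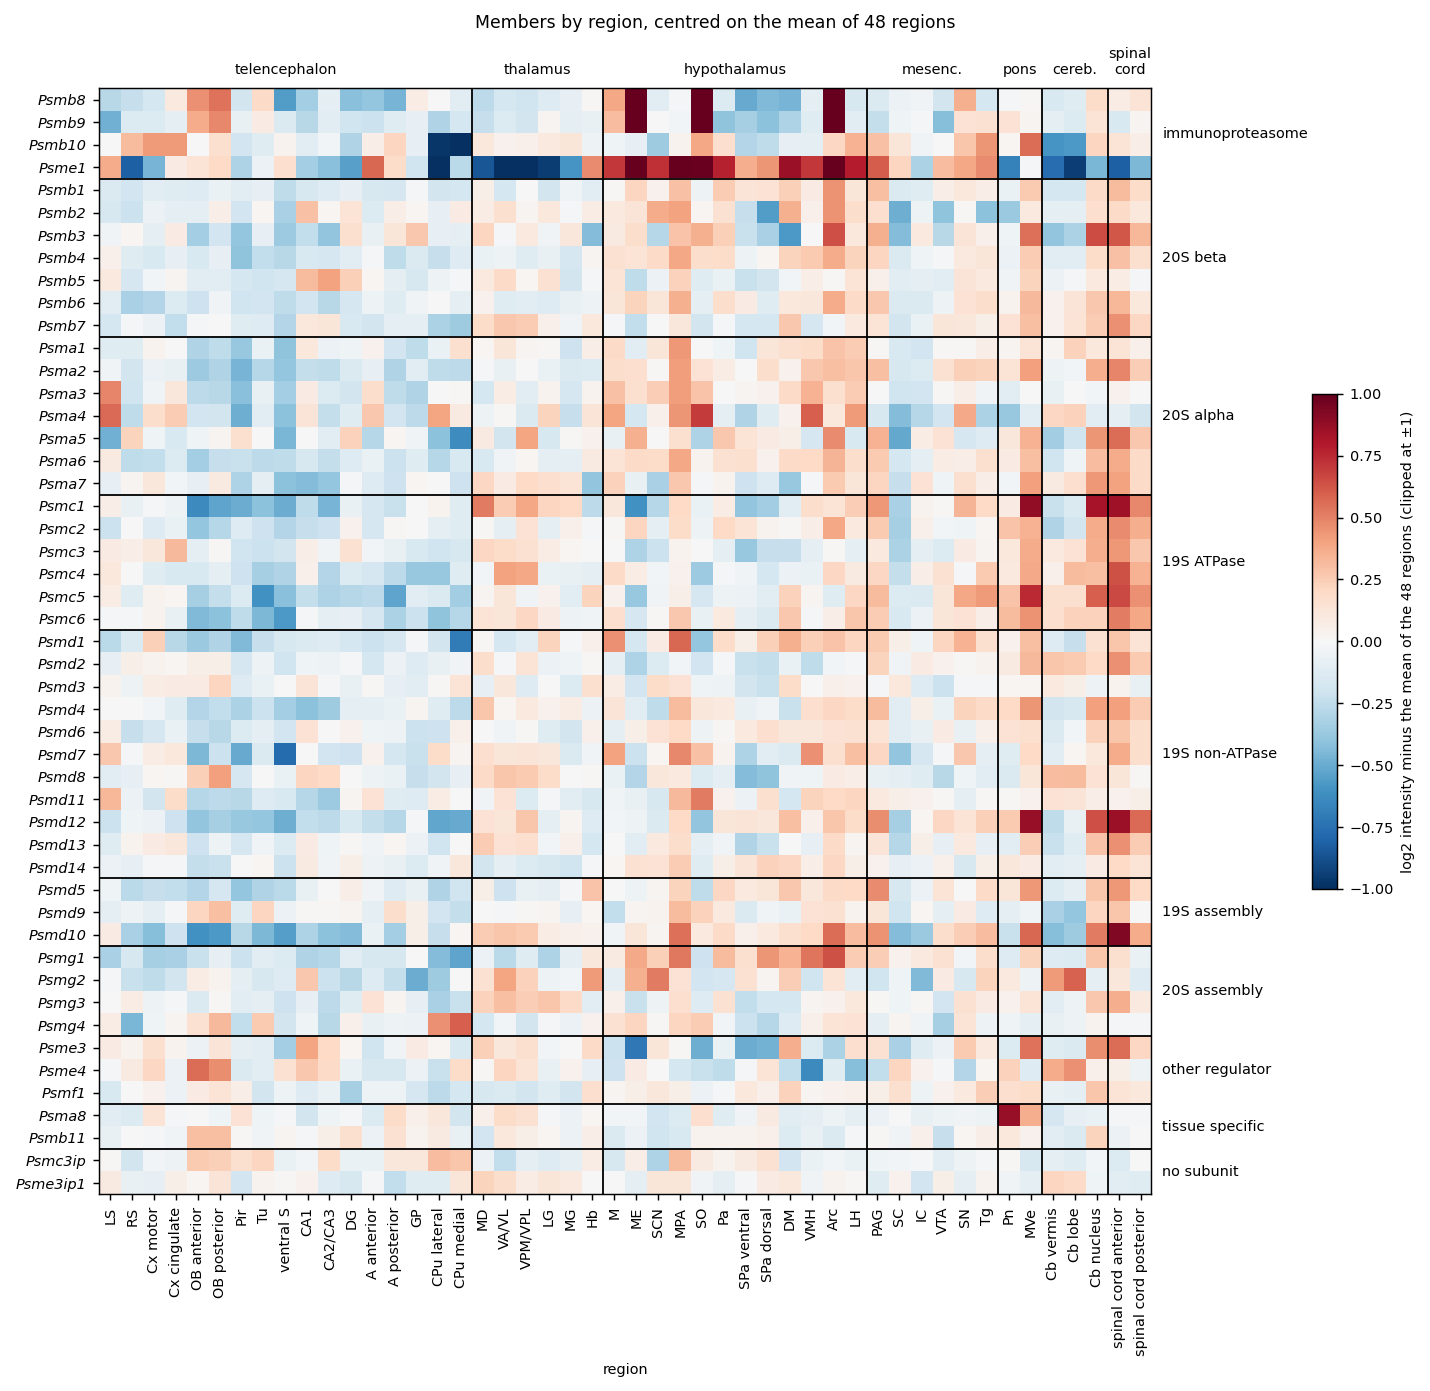
Log2 level of each of the 49 members (rows, by part of the complex) in each of 48 regions (columns, by division), as a difference from the gene's mean over the 48 regions, with colours ending at 1 above and below. Most constitutive rows are below their mean in telencephalic columns and above it in MVe, Cb nucleus and spinal cord, while Psmb8, Psmb9 and Psme1 are highest in hypothalamic columns.

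Psmb8, the immuno-counterpart of the chymotrypsin-like subunit Psmb5, was high in 3 hypothalamic regions. Its log2 levels were 9.21 and 8.97 in the supraoptic nucleus (SO), 8.81 and 8.65 in the arcuate nucleus (Arc) and 8.47 and 8.85 in the median eminence (ME). The arrays of the other 45 regions lay between 6.66 and 8.01, with a median of 7.26, so that the 6 arrays of SO, Arc and ME did not overlap with any other. Against the mean of the other 47 regions the differences were 1.76 in SO, 1.40 in Arc and 1.33 in ME (SE 0.09 each, limma adjusted p = 7.21e-24, 3.17e-19 and 7.98e-19). A second tier was made of OB posterior (7.80 and 8.01), OB anterior (7.88 and 7.76), the mammillary body M (7.87 and 7.63) and the substantia nigra SN (7.88 and 7.55). The second tier was higher than the other regions by 0.36 to 0.55, and its neighbours within that order did not differ beyond the spread of their 2 arrays. The calls in M and SN were lost when replicate 1 was left out. The lowest region was ventral S, at 6.95 and 6.66. In all, Psmb8 was higher in 7 regions and lower in 10 at an adjusted p below 0.05.

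Psmb9, the counterpart of the caspase-like subunit Psmb6, had the same 3 regions at the top. Its levels were 8.66 and 8.58 in SO, 8.39 and 8.66 in ME and 8.22 and 8.25 in Arc. The arrays of the other 45 regions reached from 6.47 to 7.64 around a median of 6.98, again with no overlap. The differences were 1.58 in SO, 1.49 in ME and 1.19 in Arc (SE 0.09 each, limma adjusted p at most 9.63e-17). OB posterior, OB anterior and M came next, 0.32 to 0.49 above the other regions, and LS was lowest at 6.47 and 6.71. Over the 48 regions the profiles of Psmb8 and Psmb9 had a Pearson correlation of 0.94, a description over region means that share their arrays and, here, neighbouring genes.

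Psmb10, the counterpart of the trypsin-like subunit Psmb7, had another pattern. It was lowest in both caudate putamen regions, with 9.11 and 8.83 in CPu medial and 9.17 and 9.0 in CPu lateral, and next in cerebellar cortex, with 9.44 and 9.48 in Cb vermis and 9.44 and 9.52 in Cb lobe. The arrays of the other 44 regions lay between 9.60 and 10.68, above those 4 regions without overlap. The differences were -1.10 and -0.99 in CPu medial and CPu lateral and -0.60 and -0.59 in Cb vermis and Cb lobe (SE 0.08 each, limma adjusted p at most 2.79e-08). Tissue beside them did not share the low level, since the globus pallidus GP measured 10.07 and 9.87 and Cb nucleus 10.31 and 10.22. The highest regions were the medial vestibular nucleus MVe (10.68 and 10.54), Tg (10.41 and 10.58), Cx motor (10.60 and 10.36), Cx cingulate (10.68 and 10.26) and SO (10.54 and 10.34), which differed from each other by no more than the gap between the 2 Cx cingulate arrays. In Arc, Psmb10 was higher by 0.21 (adjusted p = 0.0481), and in ME it measured 9.86 and 10.08, a difference of -0.08 (adjusted p = 0.4481). Its correlation with Psmb8 over regions was 0.20.

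Psme1 split the brain by division. The 24 hypothalamic arrays had Psme1 levels between 9.73 and 11.03 with a mean of 10.35, against 7.77 to 10.16 with a mean of 9.21 in all other arrays. The difference was 1.14 ± 0.03 (SE, limma adjusted p = 7.70e-39), and the ranges overlapped between 9.73 and 10.16. Arc (10.96 and 11.03), ME (10.72 and 10.83), the medial preoptic area MPA (10.76 and 10.53) and SO (10.46 and 10.50) were the top 4 regions. The thalamus was the low end, at a mean of 8.65 over 12 arrays against 9.61 elsewhere, a difference of -0.96 ± 0.04 (SE, adjusted p = 3.37e-29). The 12 thalamic arrays had an SD of 0.73, and this SE leaves out the spread between their regions. Within the thalamus, the ventral relay nuclei VPM/VPL (8.02 and 7.77) and VA/VL (8.15 and 7.81) lay below every array of the other 46 regions, which began at 8.32. The habenula Hb, grouped with the thalamus, measured 10.01 and 9.92 and was 0.48 above the other regions. In the striatum, CPu lateral measured 8.32 and 8.47, while CPu medial, at 9.31 and 9.14, was 0.27 below the other regions. Psme1 was called higher in 19 regions and lower in 20 of the 48.

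**Figure D2:**
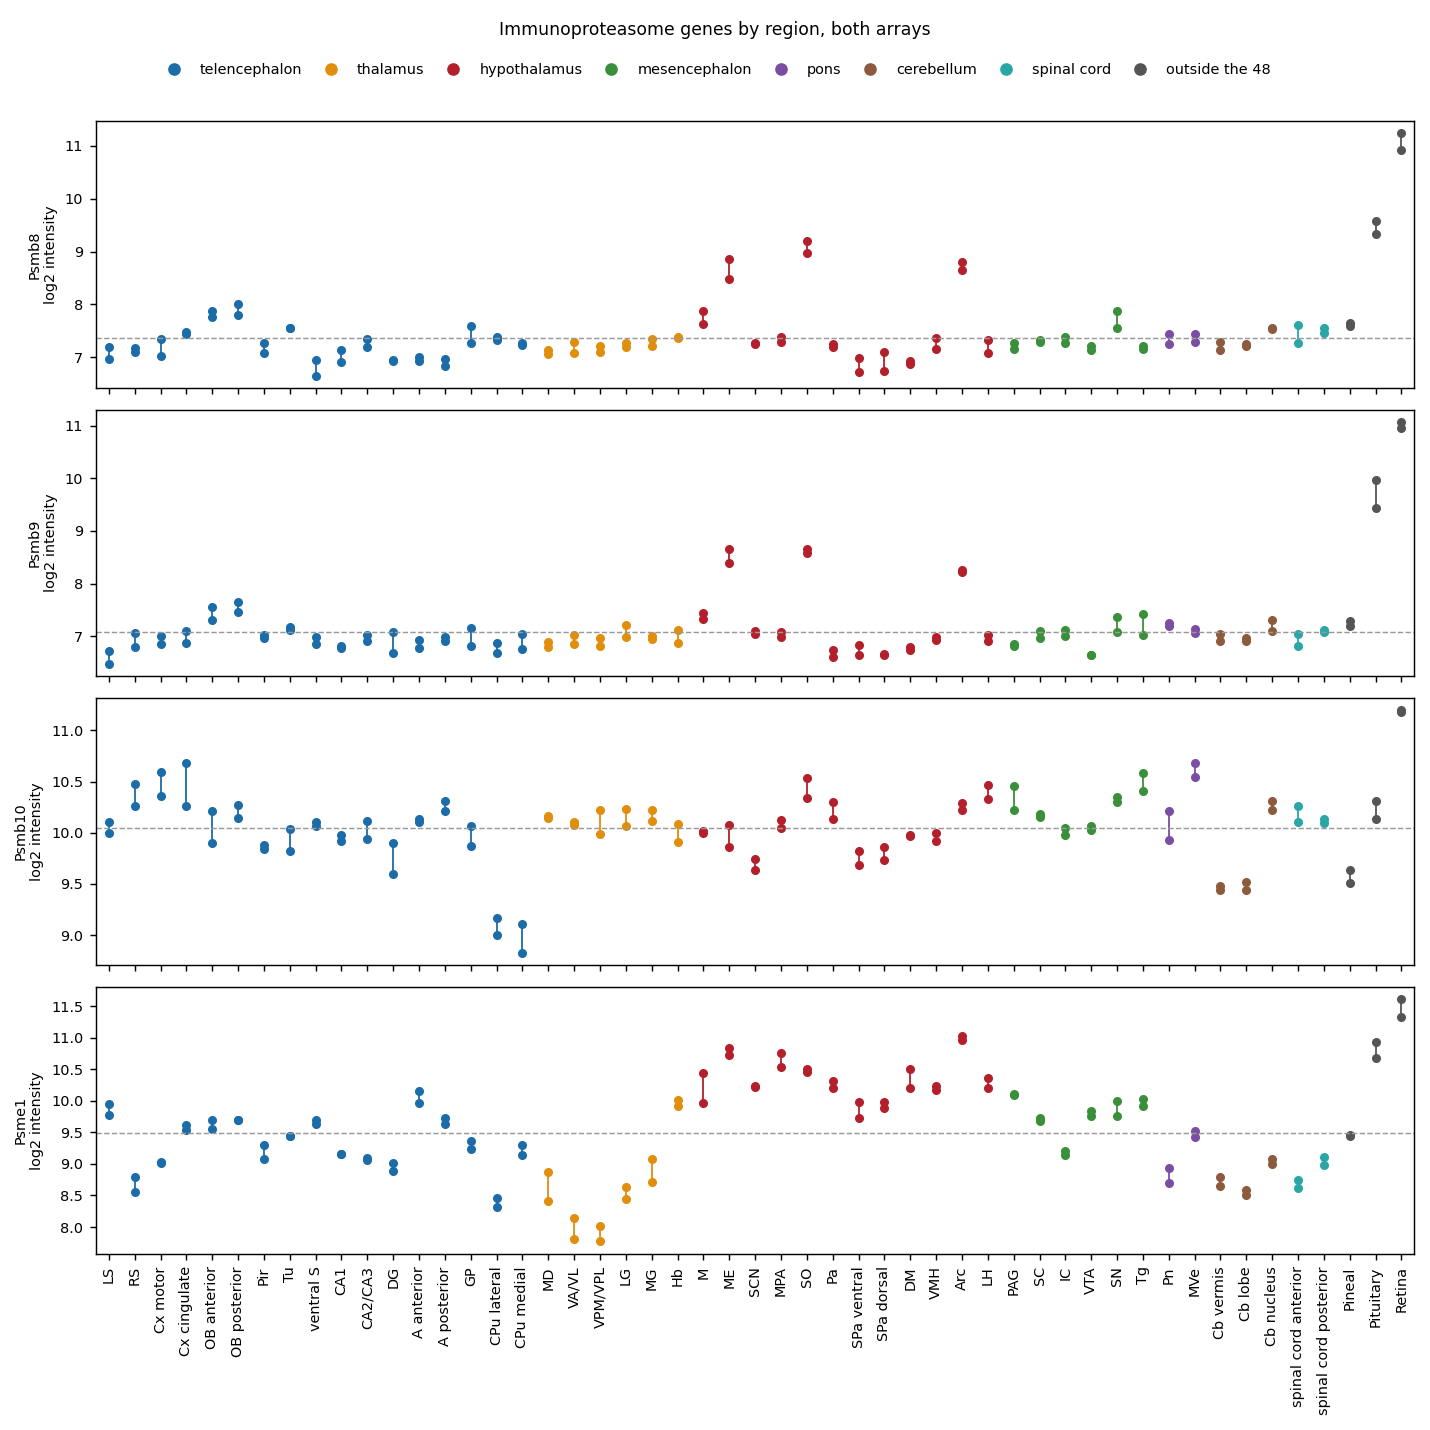
Log2 level of Psmb8, Psmb9, Psmb10 and Psme1 on both arrays of each of 48 regions and, at the right, of Pineal, Pituitary and Retina, with points coloured by division and a dashed line at the mean of the 48 regions. Psmb8 and Psmb9 stand out in SO, ME and Arc, Psmb10 is lowest in CPu medial and CPu lateral, and Psme1 is above its mean throughout the hypothalamus.

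Setting Psmb8 and Psmb9 against the constitutive subunits they replace left SO, ME and Arc at the top. The difference Psmb8 minus Psmb5 was higher than in the other regions in 6 regions, by 1.88 in SO, 1.59 in ME, 1.38 in Arc, 0.67 in OB posterior and 0.57 in OB anterior, and lower in 11. It was lowest in CA1 (-0.67), DG (-0.67) and CA2/CA3 (-0.51), where Psmb5 itself was high. In CA1 and DG, Psmb8 was also lower than in the other regions. Psmb5 measured 11.64 and 11.64 in CA2/CA3, 11.52 and 11.58 in CA1 and 11.53 and 11.42 in DG, against 10.93 to 11.51 in the arrays of the other 45 regions. Psmb9 minus Psmb6 was higher in 6 regions, with 1.68 in SO, 1.26 in ME and 0.81 in Arc, and lower in 14. For Psmb10 minus Psmb7 the order was another, with 8 regions higher, led by Cx cingulate (0.68), SO (0.59) and Cx motor (0.50), and 7 lower, led by CPu medial (-0.74), Cb lobe (-0.73) and CPu lateral (-0.66). With replicate 1 or replicate 2 of the region concerned left out, 1 and 3 regions were higher and 4 and 3 lower for Psmb10 minus Psmb7, 6 and 8 lower for Psmb9 minus Psmb6, and for Psmb8 minus Psmb5 6 were lower without replicate 2.

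Genes of MHC class I presentation, the setting in which the immunoproteasome is best known, were also higher in SO, ME and Arc. Of 11 measured class I genes, 10 were higher in SO, where 20.9% of all probe sets were, 11 in ME (background 21.4%) and 10 in Arc (background 16.0%), with median differences of 1.04, 1.10 and 0.77. B2m, the class I light chain, measured 13.06 and 13.24 in SO, 12.45 and 12.51 in ME and 12.39 and 12.49 in Arc, which was 2.02, 1.33 and 1.29 above the other regions (SE 0.11 each). Tap2, which pumps proteasomal peptides into the endoplasmic reticulum, was higher by 1.04, 1.10 and 1.07 in SO, ME and Arc. Of 18 interferon-responsive genes, 17 were higher in SO, 15 in ME and 13 in Arc, with medians of 1.03, 0.88 and 0.53, and the interferon-inducible GTPase gene Igtp was higher by 1.74, 1.68 and 1.34. Over the 48 regions, the mean profile of the class I genes correlated with Psmb8 at 0.88, Psmb9 at 0.85, Psme1 at 0.50 and Psmb10 at 0.22. Without SO, ME and Arc, a choice made after seeing the data, the same correlations over 45 regions were 0.72, 0.64, 0.29 and 0.17, that between Psmb8 and Psmb9 was 0.77, and that between Psmb8 and Psme1, 0.38 over all 48 regions, was 0.01. These are descriptions over region means from the same arrays.

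**Figure D3:**
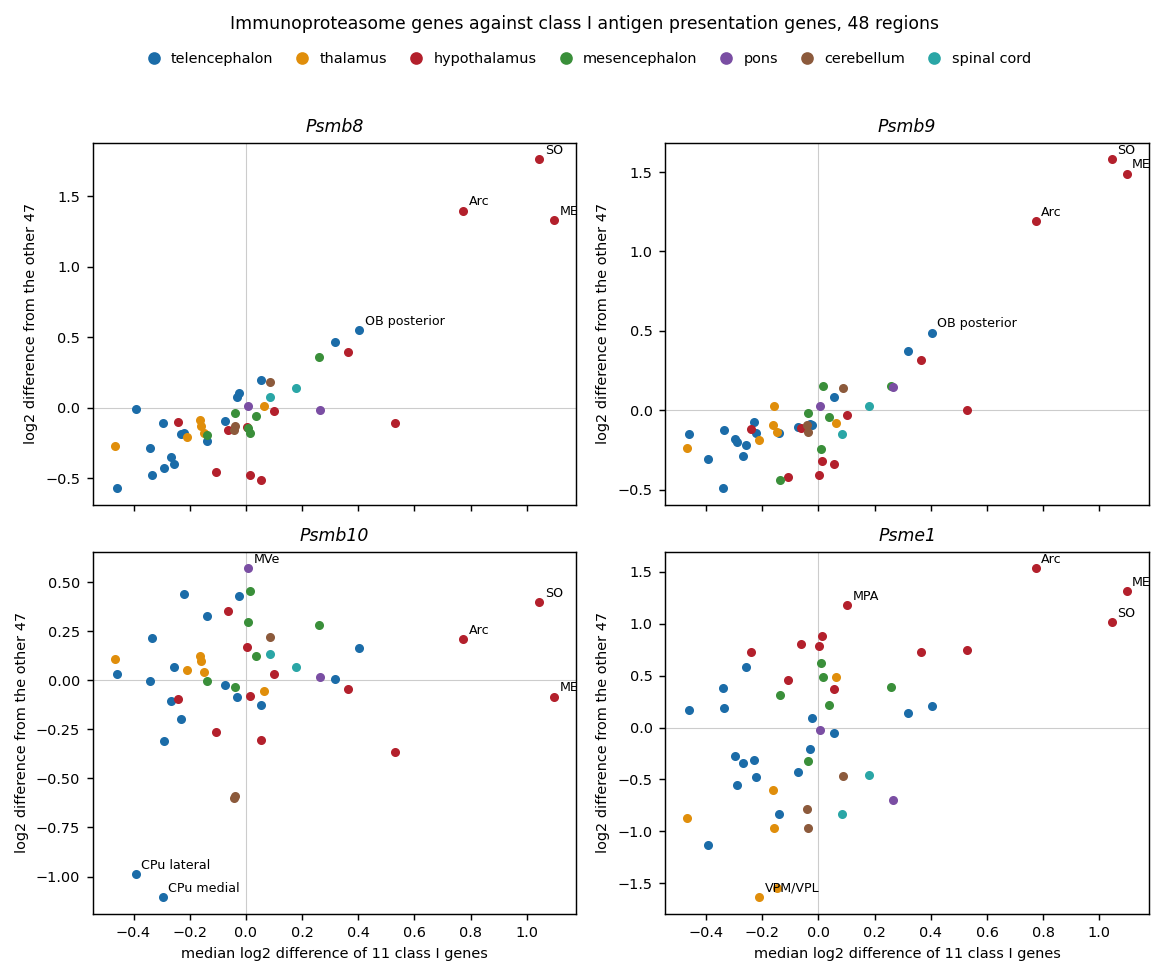
Each point is 1 of 48 regions. The x axis is the median log2 difference of 11 MHC class I presentation genes from the other regions and the y axis, in 4 panels, the log2 difference of Psmb8, Psmb9, Psmb10 or Psme1. SO, ME and Arc lie at the upper right for Psmb8 and Psmb9, whereas Psmb10 is lowest in CPu medial and CPu lateral.

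Markers of some other cell types were also higher in these 3 regions. Of all probe sets, 20.9% were higher in SO, 21.4% in ME and 16.0% in Arc. Of 11 leptomeningeal genes, 11 were higher in SO, 11 in ME and 10 in Arc, with medians of 2.91, 1.89 and 1.00. Of 11 microglial genes, 10, 7 and 7 were higher in SO, ME and Arc, with medians of 0.74, 0.63 and 0.45. Of 11 endothelial genes, 11 were higher in SO, but only 3 in ME, near the share of all probe sets, and 1 in Arc, below it. All 4 perivascular macrophage genes were higher in SO, with a median of 1.35. In ME, 4 of 6 anterior pituitary genes were higher, by 5.92 for the hormone subunit Cga and 3.55 for Tshb, while Prl and Gh differed by 0.08 and 0.27. The leptomeningeal profile correlated with Psmb8 at 0.79 and with Psmb9 at 0.85 over the 48 regions, and the neuronal profile at -0.62 and -0.64. Over the 45 regions without SO, ME and Arc, the leptomeningeal values were 0.51 for Psmb8 and 0.64 for Psmb9, and the neuronal values -0.07 and -0.01. Other profiles correlated with Psmb8 there as well, namely endothelial (0.67), astrocyte (0.58), blood (0.52), perivascular macrophage (0.51) and microglial (0.46). For Psmb9 these were 0.54, 0.47, 0.42, 0.61 and 0.29. The remaining cell type profiles lay between -0.14 and 0.29 for Psmb8 and between -0.17 and 0.16 for Psmb9. The part of these cells in the Psmb8 and Psmb9 levels was not tested. Without SO and ME among the regions, the hypothalamic difference of Psmb8 was 0.06 (adjusted p = 0.0895) and that of Psmb9 0.05 (adjusted p = 0.1386), and without Arc as well they were -0.09 (adjusted p = 0.0164) and -0.08 (adjusted p = 0.0373). Psme1 was then still higher in the hypothalamus, by 1.09 without SO and ME and by 1.01 without all 3.

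The constitutive subunits differed most between the spinal cord and the telencephalon. In the spinal cord, 24 of the 31 were higher and 0 lower, where 18.2% of all probe sets were higher and 22.1% lower, with a median difference of 0.29. In the telencephalon, 0 of 31 were higher and 26 lower (backgrounds 26.5% and 30.1%), with a median of -0.18 against 0.01 for all probe sets. The medians of these 2 divisions were the highest and the lowest of the 7. In the pons, 18 were higher and 2 lower (backgrounds 18.9% and 17.6%), median 0.19. In the hypothalamus 19 were higher and 4 lower (backgrounds 29.2% and 29.3%), median 0.09. In the cerebellum 12 were higher and 0 lower (backgrounds 24.4% and 30.2%), median 0.04. The thalamus, with 8 higher and 5 lower (backgrounds 19.3% and 23.0%), and the mesencephalon, with 7 higher and 3 lower (backgrounds 16.9% and 17.1%), had shares near those of all probe sets, and the thalamic count of members higher was 5 without VA/VL replicate 1, LG replicate 1, VPM/VPL replicate 2 or MG replicate 2. Of the 4 immunoproteasome genes, 0 were higher and 4 lower in the telencephalon and 3 higher and 0 lower in the hypothalamus, the direction of most constitutive calls there. Without SO, ME and Arc, a choice made after seeing the data, the hypothalamic differences of Psmb8 and Psmb9 reversed, as given above. In the spinal cord, where most constitutive members were higher, 0 of the 4 were higher and 1 lower. The counts of higher and lower were 0 and 3 in the thalamus, 2 and 0 in the mesencephalon, 1 and 1 in the pons and 0 and 2 in the cerebellum. In Arc, 1 of the 3 regions where Psmb8 and Psmb9 were highest, 15 of the 31 constitutive members were higher too (background 16.0%), with a median difference of 0.21 against 1.29 for the 4 immunoproteasome genes.

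**Figure D4:**
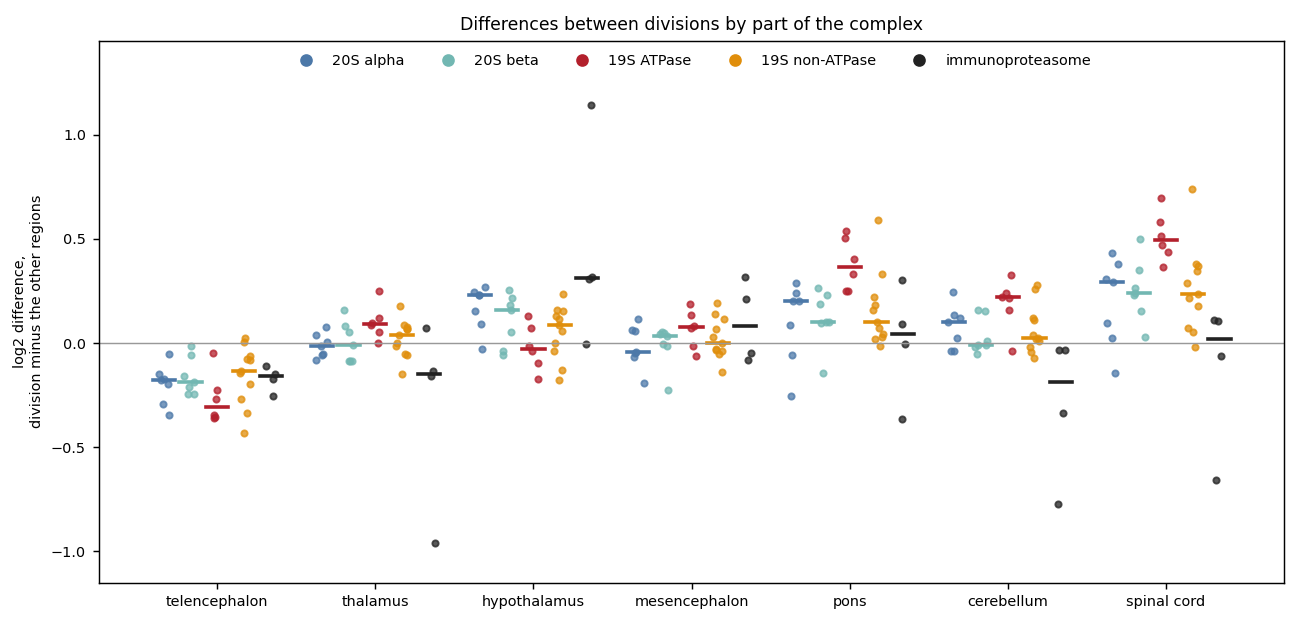
Each point is the log2 difference of 1 member between a division and the mean of the regions outside it, with members grouped by part of the complex and short bars at group medians. The 19S ATPases have the highest median of the constitutive groups in the spinal cord (0.49) and the lowest in the telencephalon (-0.31), and Psme1 is the extreme point in hypothalamus (1.14) and thalamus (-0.96).

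The ATPase ring of the 19S cap, which unfolds substrates and feeds them into the core, had the highest group median in the spinal cord and pons and the lowest in the telencephalon among the constitutive groups, although the widest single differences were those of the non-ATPase subunit Psmd12. All 6 ATPases were higher in the spinal cord (background 18.2%), by 0.37 to 0.70 with a median of 0.49. All 6 were higher in the pons (background 18.9%, median 0.37), while 5 of 6 were lower in the telencephalon (background 30.1%, median -0.31). For Psmc6, other probe sets differed by only 0.07 and -0.09 in the spinal cord, against 0.47 for the chosen one. Those of Psmc2 and Psmc4 were higher there by 0.32 and 0.29. The α ring of the core was lower in the telencephalon for 6 of 7 genes (background 30.1%, median -0.18). In the hypothalamus it was higher for 6 of 7 (background 29.2%, median 0.23). The ATPases were divided there, 2 higher and 2 lower with a median of -0.03, near the shares of all probe sets (29.2% and 29.3%). Of the β subunits, 6 of 7 were higher in the spinal cord (background 18.2%), median 0.24, and of the 11 non-ATPase subunits 8 were, median 0.24.

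The members with the largest differences changed from division to division. In the telencephalon they were Psmd10 (-0.46), Psmd12 (-0.43) and Psmc5 (-0.36) among those lower and Psmc3ip (0.13), Psme4 (0.10) and Psmb11 (0.08) among those higher. In the thalamus Psme1 (-0.96), Psmb8 (-0.16) and Psmd14 (-0.15) were lower and Psmc1 (0.25), Psmg3 (0.22) and Psmg2 (0.22) higher. The hypothalamus had Psme1 (1.14), Psmg1 (0.41) and Psmb8 (0.32) at the high end, and the Psmb8 difference reversed without SO, ME and Arc. At its low end were Psme3 (-0.25), Psme4 (-0.23) and Psmd2 (-0.18), so that the PA28 activator subunits Psme1 and Psme3 moved in opposite directions there. In the mesencephalon the leading genes were Psme1 (0.32), Psmb10 (0.21) and Psmd1 (0.19) against Psmb2 (-0.22), Psma4 (-0.19) and Psmd8 (-0.14). The pons had Psma8 (0.64), Psmd12 (0.59) and Psmc5 (0.54) higher and Psme1 (-0.37), Psma4 (-0.26) and Psmb2 (-0.14) lower. The core subunits Psma4 and Psmb2 were thus among the lowest 3 in both mesencephalon and pons. In the cerebellum Psmg2 (0.33), Psmc5 (0.33) and Psme4 (0.31) were higher and Psme1 (-0.77), Psmb10 (-0.34) and Psmd9 (-0.18) lower. In the spinal cord Psmd12 (0.74), Psmc1 (0.70) and Psmd10 (0.68) led, and Psme1 (-0.66) and Psme3ip1 (-0.12) were lower. Psme1 was thus among the extremes of 6 of the 7 divisions, and in the telencephalon it was lower by 0.26.

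Psmc1, an ATPase subunit, had the widest range among the constitutive members, 1.52 between its lowest and highest region means, or 2.87-fold. It measured 11.21 and 11.31 in MVe, 11.20 and 11.25 in spinal cord anterior and 11.27 and 11.12 in Cb nucleus, against 9.71 to 10.92 in the arrays of the other 45 regions. These 3 regions stood above all others, by 0.90 in MVe, 0.87 in spinal cord anterior and 0.84 in Cb nucleus (SE 0.08 each, limma adjusted p at most 8.29e-13), and did not differ from each other beyond the spread of their arrays. The lowest were OB anterior, at 9.71 and 9.76, and ME, at 9.77 and 9.76.

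The ATPase Psmc5 had the same 3 regions on top. It measured 12.42 and 12.52 in MVe, 12.29 and 12.47 in spinal cord anterior and 12.34 and 12.30 in Cb nucleus, with the highest array elsewhere at 12.29. Psmd12, a non-ATPase subunit of the lid, measured 11.50 and 11.53 in MVe, 11.40 and 11.60 in spinal cord anterior and 11.35 and 11.21 in Cb nucleus, against 9.97 to 11.23 elsewhere, so that only the Cb nucleus arrays met the others. Psmd10, the 19S assembly chaperone also called gankyrin, was highest in spinal cord anterior (8.63 and 8.86) and lowest in OB anterior (7.13 and 7.30), and its differences were 0.94 and -0.62 (SE 0.10 each). Psme3, the nuclear PA28γ activator, shared the pattern, with 9.83 and 9.81 in MVe, 9.75 and 9.94 in spinal cord anterior and 9.75 and 9.74 in Cb nucleus, against 8.48 to 9.79 elsewhere, and was lowest in ME at 8.48 and 8.65. A second Psme3 probe set correlated with the chosen one at 0.47 over the regions, and its spinal cord difference was -0.04, against 0.40 for the chosen one, so that the Psme3 pattern depends on the probe set.

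By single region, 23 of the 31 constitutive members were higher in spinal cord anterior (background 16.5%, median difference 0.38), 20 in MVe (background 12.2%, median 0.31), 22 in MPA (background 18.0%, median 0.27), 19 in Cb nucleus (background 14.9%, median 0.24) and 14 in PAG (background 8.17%, median 0.22). At the other end, 26 were lower in ventral S (background 20%, median -0.30), 19 in OB anterior (background 16.0%, median -0.24), 19 in Pir (background 19.1%, median -0.21), 12 in OB posterior (background 17.5%, median -0.20) and 12 in the superior colliculus SC (background 9.70%, median -0.16). The counts in PAG and SC depended on 1 library each, since 1 member was higher in PAG without its replicate 2 and 3 were lower in SC without its replicate 1. Other counts shrank with 1 array fewer, to 11 higher in MPA and 11 in Cb nucleus without replicate 1 and 13 in MVe without replicate 2, and to 15 lower in ventral S without replicate 1. Without either array, 10 to 12 were lower in OB anterior, 11 to 12 in Pir and 5 to 6 in OB posterior. After cyclic loess scaling, 14 were lower in ventral S. Against regions of the same sampling period only, 10 were lower in OB anterior, 4 in OB posterior and 20 in SC, and 5 were higher in PAG.

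**Figure D5:**
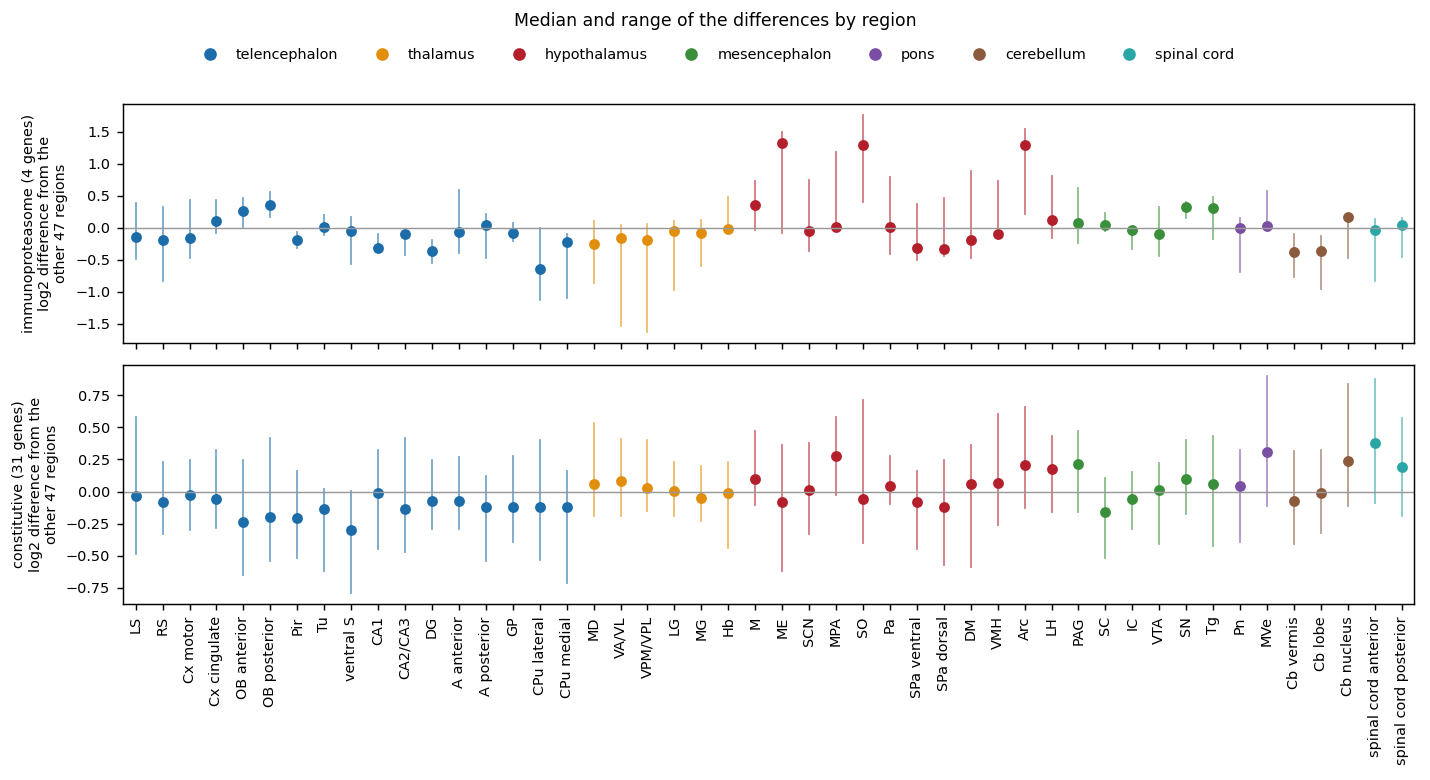
Median log2 difference from the other regions (points) with the lowest and highest member (bars) in each of 48 regions, for the 4 immunoproteasome genes (top) and the 31 constitutive subunits (bottom). The immunoproteasome medians are highest in ME (1.32), SO (1.30) and Arc (1.29), and the constitutive medians in spinal cord anterior (0.38) and MVe (0.31).

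The immunoproteasome medians of M (0.36) and OB posterior (0.35) came next, and the lowest were those of CPu lateral (-0.65), Cb vermis (-0.38), DG (-0.37), Cb lobe (-0.36) and SPa dorsal (-0.34). The subunits that Psmb9 and Psmb10 replace had tops of their own. Psmb6 was highest in Arc (11.02 and 11.04) and MPA (11.06 and 10.97) and lowest in the retrosplenial cortex RS (10.28 and 10.40). Psmb7 was highest in spinal cord anterior (12.34 and 12.46) and lowest in CPu medial (11.50 and 11.67), the region where Psmb10 was lowest too.

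Genes that act with the proteasome moved with the constitutive subunits in part. Of 15 measured partners of the ubiquitin and proteasome system, 9 were higher and 2 lower in the spinal cord (backgrounds 18.2% and 22.1%), with a median of 0.20. The ubiquitin hydrolase of the 19S cap Uchl5 was higher by 0.98, the stress-response factor Nfe2l2 by 0.74 and the core assembly factor Pomp by 0.51. The other 6 that were higher (Ecpas, Nfe2l1, Ubqln1, Sem1, Ngly1 and Usp14) differed by 0.10 to 0.41, and Ubqln2 and Akirin2 were lower by 0.23 and 0.20. In the telencephalon, 3 of the 15 were higher and 10 lower (backgrounds 26.5% and 30.1%), with a median of -0.13. Oligodendrocyte markers moved in the same divisions, and neuronal markers in part. All 10 oligodendrocyte genes were higher in the spinal cord (median 1.90) and all 10 were lower in the telencephalon (median -1.11), while in MPA, where 22 constitutive members were higher, the oligodendrocyte median was -2.0. Of 10 neuronal genes, 9 were higher and 1 lower in the spinal cord (median 0.37), but 5 were higher and 5 lower in the telencephalon (median -0.03). Over the 48 regions the mean constitutive profile correlated with the oligodendrocyte profile at 0.38 and with the neuronal profile at 0.16. The neurofilament gene Nefm, 1 of the 10 neuronal genes, was singled out after its values were seen. It was higher by 2.82 in spinal cord anterior, 2.15 in Cb nucleus and 1.74 in MVe (SE 0.13 each). The part of oligodendrocytes and neurons in the constitutive levels was not tested.

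Pairs of constitutive subunits had a median correlation of 0.45 over the 48 regions (465 pairs, from -0.36 to 0.91), and pairs of ATPases 0.66 (15 pairs). Constitutive against immunoproteasome genes had a median of 0.12 (124 pairs). With the mean profile of the other constitutive subunits, Psmb6 correlated at 0.78, Psmb7 at 0.66 and Psmb5 at 0.46, against 0.07 for Psmb9, 0.36 for Psmb10 and 0.17 for Psmb8. These values have no p, since the points share their arrays. The genes most like the constitutive profile among all genes were the members Psma2 (0.90) and Psmc6 (0.88), both part of the averaged profile and so placed near it by construction, and, outside the members, the co-chaperone gene Stip1 (0.87), over 48 region means. For the immunoproteasome profile they were Lgals3bp (0.86) and the peptide transporter gene Tap2 (0.84), neither of which is in the profile. For single genes, a search made after their values had been seen gave Igtp (0.95) and Irgm2 (0.95) for Psmb9, Celf6 (0.89) and Prmt2 (0.88) for Psme1, and for Psmb10 no gene above Katnal1 (0.69).

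The assembly chaperones had patterns of their own. Psmg1, a partner in the chaperone pair that builds the α ring, was higher in the hypothalamus by 0.41, with 9.83 and 9.99 in Arc as its highest region, and lowest in CPu medial at 8.58 and 8.92. Psmg2, the other partner of that pair, was highest in Cb lobe at 9.58 and 9.83, and lowest in GP at 8.50 and 8.75. Psma8, the α subunit known from testis, was low on the arrays throughout, between 5.35 and 6.06 in 47 regions, but measured 6.49 and 6.48 in the pontine nucleus Pn, a difference of 0.89 ± 0.08 (SE, limma adjusted p = 8.91e-14). Psmb11, the thymus subunit, kept an SD over regions of 0.11 against a replicate SD of 0.11. Psme4, which encodes the PA200 activator, was highest in OB anterior (9.96 and 10.07) and lowest in VMH (8.68 and 8.97). Psmf1, which encodes the inhibitor PI31, was lowest in DG (9.07 and 9.10).

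The Retina, Pituitary and Pineal arrays were compared with the 48 regions in a fit of their own. The 2 arrays labelled Retina carried the rod genes Gnat1 (12.03 and 12.34) and Nrl (11.37 and 12.07), but also the pituitary hormone genes Prl (14.34 and 13.44) and Gh (14.77 and 14.62), the skeletal muscle gene Acta1 (14.00 and 13.91) and the epithelial keratin gene Krt5 (13.35 and 13.74), whose medians over the 96 arrays were 6.33, 7.52, 7.33 and 8.05. Both Retina arrays thus held transcripts of other tissues, and values for Retina cannot be given without them. Pituitary carried Prl (14.68 and 14.74) and Pineal the melatonin pathway gene Tph1 (14.06 and 14.03). In the Retina arrays Psmb8 measured 10.91 and 11.24, Psmb9 11.08 and 10.96, Psmb10 11.20 and 11.18 and Psme1 11.33 and 11.61, higher than in the 48 regions by 3.71, 3.95, 1.14 and 1.98. All 4 were above every array of the 48 regions. Of the constitutive members 18 were higher and 6 lower (backgrounds 28.4% and 41.1%), with a median of 0.22, and 3 were lower without replicate 2.

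In Pituitary, Psmb8 measured 9.57 and 9.33, Psmb9 9.97 and 9.43 and Psme1 10.93 and 10.67, higher by 2.09, 2.63 and 1.31, while Psmb10, at 10.31 and 10.13, differed by 0.17 (adjusted p = 0.0863). Of the constitutive members 2 were higher and 15 lower (backgrounds 27.3% and 22.9%), with 5 of the 6 ATPases lower and a median of -0.58 for the ATPases. After cyclic loess scaling, 10 constitutive members were higher and 11 lower in Pituitary, so that the split depends on the scaling, and without replicate 2 there were 4 higher and 8 lower, with 1 higher without replicate 1. In Pineal, 7 were higher and 7 lower (backgrounds 28.3% and 23.1%; 2 lower without replicate 2), Psmb8 was higher by 0.25 (adjusted p = 0.0188), Psmb9 measured 7.18 and 7.29 and Psmb10 was lower by 0.48. Of the assembly chaperones, all 3 of the 19S cap and 3 of 4 of the core were higher in Pineal, led by Psmg2 at 10.40 and 10.35, a difference of 1.25.

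The chosen probe sets were checked against others of the same gene where there were any. Of 54 other probe sets of the members, 31 had a mean of at least 7, and 19 of these correlated above 0.5 with the chosen one over the 48 regions, with a median of 0.68. Those below 0.5 belonged to Psma1, Psmb1, Psmc6, Psmd4, Psmd7, Psmd9, Psmd11, Psmd13, Psme3 and Psmg2. In the spinal cord, such a probe set of Psma1 differed by -0.38 and one of Psmd7 by -0.37, against 0.10 and 0.29 for the chosen ones. Second probe sets of Psma5, Psma6, Psma7, Psmb3, Psmb4, Psmc2, Psmc4, Psmd4 and Psmd6 were higher there, like the chosen ones. A further Psmd4 probe set differed by -0.05, against 0.35 for the chosen one. Of Psmd13, 1 probe set differed by 0.28 and another by -0.18, against 0.37 for the chosen one.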

How the data were processed

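The authors prepared the arrays from pooled tissue and processed the scans with RMA, whose version is not given in the sources used here, and they deposited background-corrected, normalized and summarized log2 values, 1 per probe set and array. Probe sets were named from the platform annotation, control probe sets were left out, and 45037 were tested. The members, gene lists and cell type markers were chosen with earlier results of these data known. Region differences were fitted with limma 3.58.1 in R 4.3.3 (lmFit and eBayes, 1 coefficient per region, each region or division minus the mean of the other regions), with Benjamini-Hochberg adjustment over all tested probe sets per contrast and a threshold of 0.05. Retina, Pituitary and Pineal entered a fit of all arrays. Tables and plots were made with Python 3.11.15, numpy 2.4.6, pandas 2.3.3 and matplotlib 3.10.9. The genes named were the immunoproteasome genes, their counterparts and the regulators, up to 3 members per division and direction with the largest differences, those of largest and smallest SD, the regions of the 5 highest and 5 lowest medians of each group, and the genes most like 2 profiles among 10. Other member values by region, list genes and single-gene searches outside this rule were singled out after their values were seen. Tested on simulated data (8000 probe sets, Hb against the other 47 regions), the fit recovered 58, 90, 100 and 100% of log2 shifts of 0.3, 0.5, 1 and 2 (50 each), with 6 false calls. Apart from these shifts the simulated regions did not differ, whereas in the data 15.2% of probe sets were higher and 11.5% lower in Hb. The adjustment thus cuts elsewhere in the data, and these rates do not carry over to the reported fits. The number of arrays, 2 per region, limits the precision. Alternatives were another scaling (cyclic loess), a variance trend, a replicate block, dim or less specific probe sets left out, the mean of a gene's probe sets, regions of the same sampling period, SO and ME (or SO, ME and Arc, chosen after seeing the data) left out, and each replicate left out. The matches to 1 promoter motif are not reported here.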

Additional observations from a re-analysis of the deposited data

Results flagged for a closer look

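Among region means of a division, 2 of 20 combinations of gene and division had a region far from the others by Dixon's test, which chance gives in about 1 of 20 groups. Psmb8 measured 7.72 in SN, where the next mesencephalic region was at 7.33, and the gap was 0.72 of the whole range. Psmf1 measured 9.58 in Hb, where the next thalamic region was at 9.29, a gap of 0.813 of the range.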

How the results depend on the processing

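Of the results for single genes, 477 kept their direction and side of the threshold under an alternative, 11 fell short of the threshold, 4 passed it anew and 2 reversed: without SO, ME and Arc, an alternative chosen after seeing the data, Psmb8 in the hypothalamus was -0.0916 and Psmb9 -0.0785. Of the counts, 283 stayed within 1.5 times the value reported and 35 moved. With regions of the same sampling period only, constitutive members higher in PAG numbered 5, those lower in SC 20, in OB posterior 4 and in OB anterior 10. With the probe sets whose design marks possible cross-hybridization left out, 9 were higher in PAG. After cyclic loess, 14 were lower in ventral S and 10 higher in Pituitary. When 1 library at a time was left out, the counts ran from 5 to 10 for the thalamus (higher; 5 without VA/VL replicate 1, LG replicate 1, VPM/VPL replicate 2 or MG replicate 2). With 1 array left in a region, which is then assumed to vary like the other regions, they ran from 13 to 17 for MVe, 11 to 15 for MPA, 11 to 16 for Cb nucleus and 1 to 10 for PAG (all higher), and from 3 to 12 for SC, 5 to 6 for OB posterior, 11 to 12 for Pir, 10 to 12 for OB anterior and 15 to 20 for ventral S (all lower; ventral S 15 without its replicate 1). In Pituitary 1 to 4 were higher and 8 to 12 lower (8 without its replicate 2), in Retina 3 to 5 lower and in Pineal 2 to 7 lower (3 and 2 without replicate 2). Regions numbered 6 to 8 for Psmb8 minus Psmb5 lower, 6 to 8 for Psmb9 minus Psmb6 lower, and 1 to 3 higher and 3 to 4 lower for Psmb10 minus Psmb7, when replicate 1 or 2 of each region concerned was left out. The cause of these shifts was not tested, apart from the loss of arrays. A replicate block changed no count by over 1.5 times: 24 members were higher in the spinal cord and 26 lower in the telencephalon with the replicate block, as without it. Replicate numbers were not taken to pair the arrays. Deviations of same-numbered arrays had a mean correlation of 0.01 over 1128 pairs of regions (282 above 0.1 and 234 below -0.1). Within a sampling period it was 0.07 over 327 pairs (142 above 0.1 and 50 below -0.1). The replicate block was 1 term across all sampling periods, so its counts do not test an effect shared within a period. With 2 arrays per region, shifts near 0.3 were recovered in 58% of simulated cases, a rate that does not carry over to the reported fits. Dim members such as Psma8 and Psmb11 lie near the lower end of the array's range.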
